A study of Mus musculus with 10 samples.

Results

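VSGC12, a glucocorticoid known here only by its code name, was set against the solvent group EtoH in RAW264.7, a cell line of mouse macrophage type. The comparison took in every probe on the arrays that is not a control, 55681 distinct probes in all, and 18046 genes passed the filter on dim signal and were tested. It rests on 4 arrays, 2 labelled VSGC12 and 2 labelled EtoH, out of 10 in the series. The remaining 6 arrays carry 3 more glucocorticoids with 2 arrays each, namely VSG22, FF (fluticasone furoate) and Dex (dexamethasone), and they entered the fit to estimate the spread between replicates. In the VSGC12, VSG22, FF and Dex groups the glucocorticoid was given at 100 nM to wells at 60% confluence. Lipopolysaccharide (LPS, a bacterial cell-wall component) followed 1 hour later at 1 µg/ml and stayed on for 16 hours. Whether LPS was also added to the EtoH wells is not stated, and no group is described as unstimulated, so the response to LPS itself cannot be read from these arrays. The labels do not tell whether replicates are separate cultures, so the p-values measure only the spread between these arrays, which may be technical.

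Glucocorticoids enter the cell and bind the glucocorticoid receptor, a nuclear receptor that leaves its chaperones, moves to the nucleus and binds DNA. There it turns on some genes directly and restrains genes driven by NF-kB, AP-1 and interferon regulatory factors. In macrophages LPS works through Toll-like receptor 4 and induces cytokines, chemokines and interferon beta, and interferon beta then induces a second wave of antiviral genes. LPS is also known to slow the division of macrophages and of this line.

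Levels below are log2 processed signals minus the 75th percentile of the same array, so a level of 0 is as bright as that percentile and 1 unit is a doubling. A difference is the mean of the VSGC12 arrays minus the mean of the EtoH arrays, given with its standard error from limma's fit over all 10 arrays. A gene is called where limma's p-value, adjusted over all genes tested by the method of Benjamini and Hochberg, is below 0.05; "rose" and "fell" are used only of called genes. Of the 18046 genes, 6289 were called, a share of 34.8%, and this is the background against which each count below is read. A current gene symbol was held by 13512 of the 18046, and the background includes the others too. Higher in VSGC12 were 2926 genes (16.2%) and lower were 3363 (18.6%). The change reached 2-fold in 782 of the genes that rose and in 754 of those that fell, and 4-fold in 209 and 146. At an unadjusted p below 0.05 there were 8228 genes. The arrays of a group lay on one side of both arrays of the other group in 13069 genes (72.4%). The median difference over all genes was -0.02. The call rests on few arrays: 4185 genes were called without VSGC12 replicate 1, 3900 without VSGC12 replicate 2, 3829 without EtoH replicate 1 and 3729 without EtoH replicate 2. The direction counts depend on the scaling. Subtracting each array's median in place of its 75th percentile moved the median difference over all genes to 0.16. That is 0.19 higher than in the scaling used here. The calls left were 2433, of which 71.8% were higher against 46.5% here. Each array's median was a dim signal, since at most 44.4% of spots on an array were well above background. It was 12.27 and 15.74 on the VSGC12 arrays, whose 75th percentiles were 419.5 and 398.5. On the EtoH arrays it was 14.97 and 16.29, against 75th percentiles of 375.1 and 434.6. Whether this dim anchor ended calls was not tested. Because the counts depend on the scaling, those under array-median scaling stand beside many of the lists, though not beside every list whose counts they move.

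The 10 arrays were alike in brightness, though not in patches of raised spots. Their 75th percentiles of processed signal ran between 375.1 and 536.8. Between 40.1% and 44.4% of spots were well above background, and 0 spots were saturated. Replicates correlated across genes with r = 0.994 for VSGC12 and 0.995 for EtoH, and with r = 0.984 for Dex, whose arrays differed most. Every group sits at the same position on both slides, so position and treatment cannot be told apart. Small patches of raised spots touched 470 of the genes tested (2.60%) on a VSGC12 or EtoH array, and 164 of those were called. Patches on the Dex arrays covered more spots, 2320 and 3224, and touched 1666 of the genes tested. They covered 1008 and 1116 spots on the FF arrays, 334 and 274 on the VSGC12 arrays and 445 and 349 on the EtoH arrays. All 9 macrophage markers were measured, among them Cd68, Adgre1 and Csf1r. None of 5 epithelial and none of 5 B cell markers passed the filter. Of 6 T cell markers 3 passed it (Cd3e, Cd4 and Il7r), while Cd3d, Cd3g and Cd8a did not. Of 6 fibroblast markers 2 passed (Dcn and Lum), and the collagens did not. Of 7 neutrophil and mast cell markers 3 passed (Elane, Camp and Tpsb2), and of 4 endothelial markers 1 did (Kdr). These markers are taken up again beside the reference genes. In cultured cells measured in bulk, fewer cells expressing a gene and less RNA per cell cannot be told apart.

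**Figure D1:**
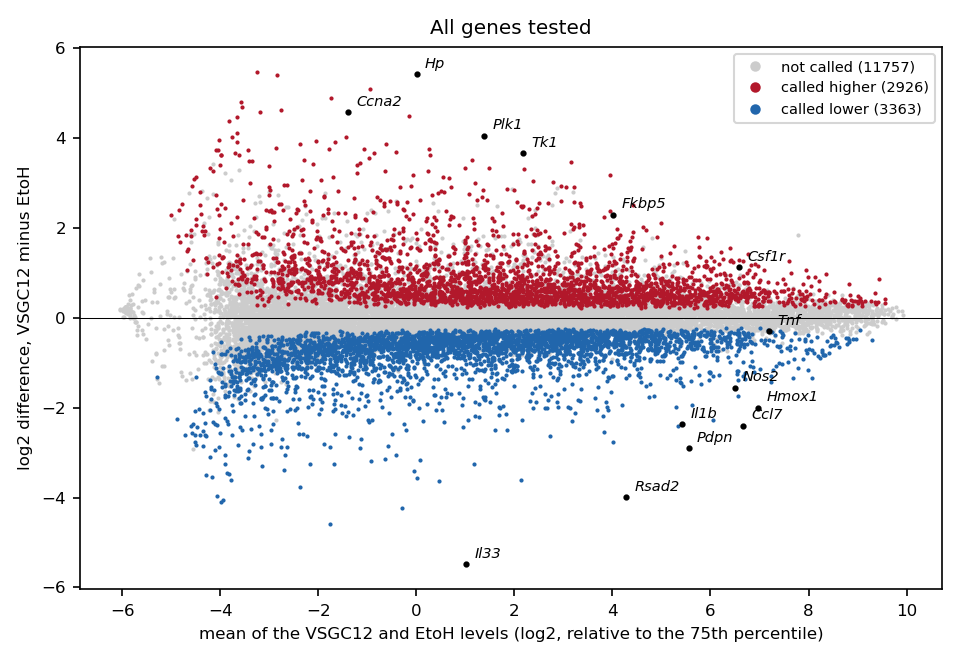
Each point is a gene: the horizontal axis is the mean of its VSGC12 and EtoH levels (log2, relative to the array's 75th percentile) and the vertical axis is the log2 difference, VSGC12 minus EtoH. The 2926 genes called higher are red, the 3363 called lower blue and the 11757 not called grey. Named genes are marked in black, with Hp at the top and Il33 at the bottom.

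The receptor's own transcript and its most used reporter genes gave a mixed picture. Fkbp5, a co-chaperone that restrains the receptor and a standard direct target, read 5.25 and 5.07 on the VSGC12 arrays, against 2.92 and 2.80 on the EtoH arrays. Both VSGC12 arrays lay well above both EtoH arrays, a difference of 2.30 ± 0.13 (adjusted p = 7.3e-05). Nr3c1, which encodes the receptor, read 3.02 and 2.86 with VSGC12, against 3.14 and 3.12 with EtoH, and was not called (-0.19 ± 0.09, adjusted p = 0.16); its other probe differed by -0.68, and the mean of both probes was called (-0.43, adjusted p = 0.012). Tsc22d3, the leucine-zipper protein GILZ, read 3.95 and 3.81 with VSGC12, against 3.70 and 3.69 with EtoH, and was not called either (0.19 ± 0.09, adjusted p = 0.14). The levels of Dusp1, a MAP kinase phosphatase, overlapped between the groups, at 4.97 and 4.82 with VSGC12 against 4.66 and 4.79 with EtoH, a difference of 0.17 ± 0.16 (adjusted p = 0.46). Zfp36, which hastens the decay of cytokine mRNAs, differed by 0.37 ± 0.30 (adjusted p = 0.37). Per1, a clock repressor with receptor sites in its promoter, read 3.29 and 2.88 with VSGC12, against 3.46 and 3.52 with EtoH, and was not called at -0.40 ± 0.15 (adjusted p = 0.076); it was called without VSGC12 replicate 1, at -0.61 (adjusted p = 0.024), with the 75th percentile over detected probes (-0.46, adjusted p = 0.033), with quantile normalization (-0.45, adjusted p = 0.032) and with a trended and robust variance (adjusted p = 0.043).

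Of 30 measured target genes of the receptor, 6 rose and 5 fell, 36.7% called in all, close to the background of 34.8%, and under array-median scaling 4 rose and 2 fell. The median of the list was 0.13. Mertk, a receptor kinase by which macrophages take up dying cells, was well above background on both VSGC12 arrays (levels -1.57 and -1.69) and on neither EtoH array, and was at least 4.56-fold higher in VSGC12. A bound of this kind sets the bright group's mean against the detection limit of the dim arrays, taken as the dimmest probe still well above background there, or against the probe's own signal where that was higher. The members that fell included Rgs2, an inhibitor of G protein signalling, at -2.53 ± 0.13, and Ddit4, an inhibitor of mTOR, at -1.51 ± 0.09. Among 20 genes for the receptor's chaperones and cofactors, 4 rose and 3 fell, 35% called, close to the background. Fkbp4, the immunophilin that helps carry the receptor to the nucleus, rose by 1.15 ± 0.13, and Hsp90aa1, an inducible form of the chaperone that holds the unbound receptor, fell by 1.09 ± 0.09 (log2 -1.09). Of these 20, 2 rose without VSGC12 replicate 1 or EtoH replicate 1 and under array-median scaling, and 1 fell without VSGC12 replicate 2, without either EtoH replicate and under array-median scaling.

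The gene with the largest rise among those well above background on all 4 arrays was Hp, which encodes haptoglobin, the plasma protein that binds free hemoglobin. It read 2.81 and 2.62 on the VSGC12 arrays, against -2.73 and -2.68 on the EtoH arrays, a 42.8-fold difference (log2 5.42 ± 0.10, adjusted p = 3.2e-06). Its probe lies on chr8:112099045-112099104 in mm9, the build named in the file headers, on the minus strand. Next came Ccna2, which encodes cyclin A2 of S phase and mitosis, with 1.07 and 0.73 in VSGC12 against -3.86 and -3.51 in EtoH (4.58 ± 0.19). The remaining 13 of the 15 highest ran from Plk1, a mitotic kinase, at 4.06 ± 0.18 to Aunip, a partner of Aurora A, at 3.28 ± 0.20. Most of the 15 act in cell division or DNA repair: Exo1, Rad54l and Rad51ap1 in recombination, Tk1 and Rrm2 in supplying deoxynucleotides, E2f7 as a repressor in the E2F family, and Birc5 and Nusap1 at the spindle. Steap1, a membrane protein of the metalloreductase family, rose by 3.92 ± 0.12 and Prss16, a serine protease, by 3.52 ± 0.14. E2f7 counted as above background in EtoH only through its other probe, which differed by -1.04; the probe that represents it was below background on both EtoH arrays, so its rise has no exact size.

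At the other end stood Il33, a nuclear cytokine of the interleukin 1 family released by damaged cells. It read -1.24 and -2.20 on the VSGC12 arrays, against 3.73 and 3.80 on the EtoH arrays, 44.9-fold lower with VSGC12 (log2 -5.49 ± 0.27, adjusted p = 4.7e-05). The VSGC12 arrays were nearly 1 unit apart and still both lay far below EtoH. Its probe is at chr19:30035101-30035160 on the plus strand of mm9. Of the 15 lowest, Rsad2, Ifit2, Cmpk2, Ifit3b and Ifit3 are interferon-induced antiviral genes and Ccl12 is a chemokine. Others were Clu (clusterin, a secreted chaperone) at -3.06 ± 0.14, Pdpn (podoplanin, a membrane glycoprotein of inflammatory macrophages) at -2.90 ± 0.16, Plpp3, a lipid phosphatase, at -2.86 ± 0.19, Tent5c, a poly(A) polymerase, at -3.16 ± 0.16, and H2ac18, a histone H2A gene, at -2.75 ± 0.11. H2ac18 has near-identical copies, so its signal may be shared. Ifit3 and Ifit3b are likewise close copies that a probe may not separate.

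**Figure D2:**
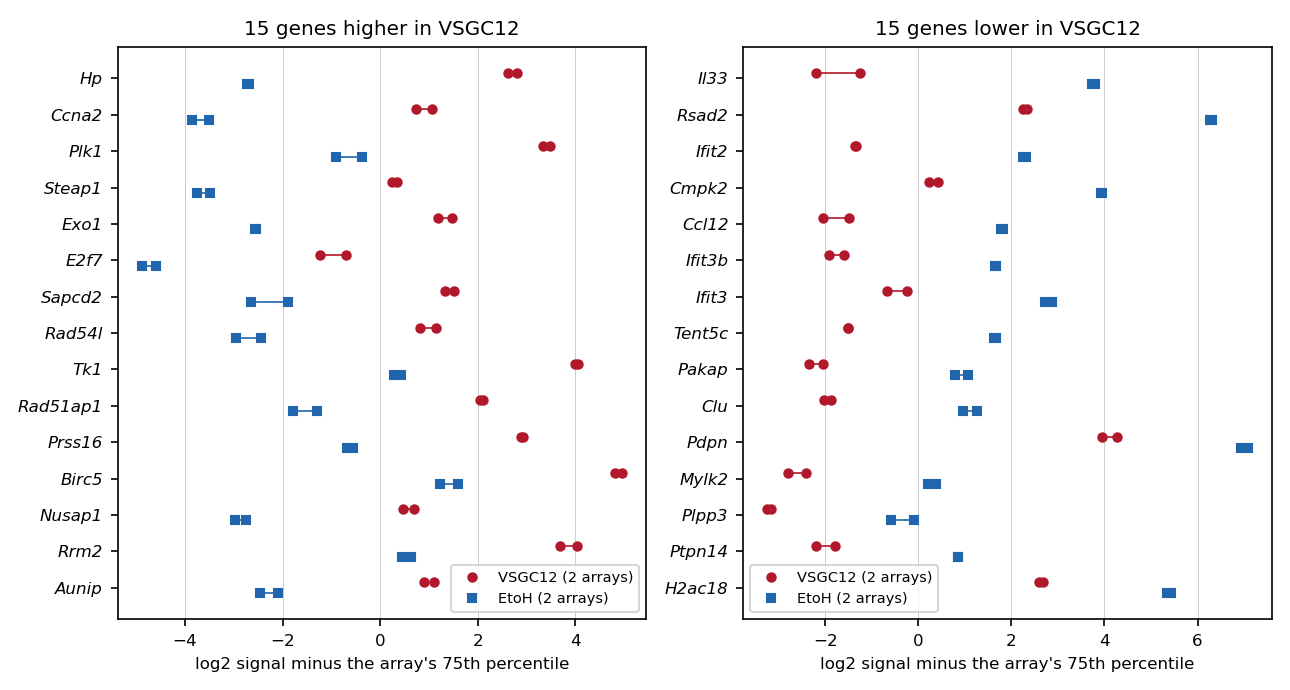
Levels of the 15 genes with the largest rise and the 15 with the largest fall among called genes well above background in both groups (for E2f7 in EtoH through another probe than the one plotted, which was below background there); the horizontal axis is log2 signal minus the array's 75th percentile, VSGC12 arrays are red circles and EtoH arrays blue squares. In all 30 genes both VSGC12 arrays lie on one side of both EtoH arrays, which was a condition of their selection. The VSGC12 arrays of Il33 read -1.24 and -2.20.

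Some genes were above background in one group only. Higher in VSGC12 by these bounds were Depdc1b, a mitotic regulator, at least 10.4-fold, and Serpina3g, an intracellular serine protease inhibitor, at least 9.91-fold, together with the predicted genes Gm12387 (at least 12.8-fold), Gm9430 (at least 8.96-fold) and Gm6093 (at least 6.21-fold) and with Arl14epl (at least 7.52-fold). Serpina3g belongs to a cluster of near-identical genes, and its signal may be shared with its neighbours. Lower in VSGC12 were Scg2 (secretogranin II, a secretory granule protein) at least 9.41-fold, Osbp2, an oxysterol-binding protein, at least 6.56-fold, Dusp13 at least 5.94-fold, Crtam, a surface receptor of activated lymphocytes, at least 5.76-fold, Serpinb6b at least 5.05-fold and Rhov at least 4.48-fold. Over all genes, 123 of those called higher were not detected in EtoH and 201 of those called lower were not detected in VSGC12.

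Genes of interferon production and response fell in part. Ifnb1, which encodes interferon beta, was well above background on both EtoH arrays (-2.25 and -2.02) and on neither VSGC12 array, at least 3.0-fold lower in VSGC12. Of 14 measured interferons, receptors and IRF factors 0 rose and 6 fell. Irf7, the factor that amplifies type I interferon production, read 4.21 and 4.18 with VSGC12, against 4.96 and 4.87 with EtoH (-0.72 ± 0.10, adjusted p = 0.0028), and Ifngr2, a chain of the interferon gamma receptor, fell by 0.66 ± 0.08 (log2 -0.66). Under array-median scaling the calls of Irf7 and Ifngr2 were lost and 1 of the 14 genes was called, lower in VSGC12.

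Of 33 interferon-induced antiviral genes 18 fell and 2 rose, 60.6% called, with a median of -0.37. Rsad2, which encodes viperin, an enzyme that makes a chain-terminating nucleotide, read 2.34 and 2.25 on the VSGC12 arrays, against 6.26 and 6.30 on the EtoH arrays. That is 15.9-fold lower with VSGC12 (log2 -3.99 ± 0.10, adjusted p = 9.1e-06). Mx1, a dynamin-like GTPase against RNA viruses, was lower still by difference, at -3.91 and -4.20 with VSGC12 against 0.56 and 0.50 with EtoH (-4.58 ± 0.12), but it was well above background on only 1 of the 2 VSGC12 arrays. Ifit2, which binds viral RNA, read -1.34 and -1.35 with VSGC12, against 2.31 and 2.26 with EtoH (-3.63 ± 0.12). Cmpk2, the mitochondrial nucleotide kinase encoded beside Rsad2, fell by 3.61 ± 0.14 (log2 -3.61). Against this direction went Ifitm3, which blocks viral entry, higher by 0.60 ± 0.11, and Lgals3bp, higher by 0.30 ± 0.09; both calls were lost under array-median scaling, and that of Lgals3bp also without VSGC12 replicate 1 (0.19), EtoH replicate 1 (0.33) or EtoH replicate 2 (0.27). The fall was uneven across the list, since the differences of its members ran from -4.58 to 0.60. The number that fell was 10 without VSGC12 replicate 2, 10 without EtoH replicate 1 and 11 without EtoH replicate 2, and 8 under array-median scaling.

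The relatives of these genes behaved in their own ways. Of 15 guanylate-binding proteins and immunity-related GTPases, which attack the vacuoles of intracellular pathogens, 8 fell and 0 rose (median -0.61). Gbp2 read -2.35 and -2.59 with VSGC12, against 0.23 and 0.21 with EtoH (-2.69 ± 0.19), and Gbp5, an activator of the NLRP3 inflammasome, fell by 2.28 ± 0.25 (log2 -2.28). Without EtoH replicate 1, 5 of the 15 fell, and under array-median scaling also 5. In the OAS family and the RNA sensors, 17 genes, 6 fell and 1 rose, and the median of -0.07 turned to 0.12 under array-median scaling, where 1 fell; without EtoH replicate 1, 2 fell, and without EtoH replicate 2, 3 fell. In the fit reported 41.2% of these 17 genes were called, against the background of 34.8%. Oasl2 fell by 1.09 ± 0.10 (log2 -1.09), and Cgas, the DNA sensor, rose by 0.63 ± 0.10. Of 8 Schlafen genes 1 was called, Slfn8 at -0.49 ± 0.13, and that call was lost under array-median scaling and without VSGC12 replicate 2 (-0.40), EtoH replicate 1 (-0.45) or EtoH replicate 2 (-0.53). Among 19 STAT and SOCS genes 4 fell and 1 rose; 1 fell without VSGC12 replicate 2 or EtoH replicate 1, 2 without EtoH replicate 2 and 0 under array-median scaling, where the median of -0.10 turned to 0.09. In the fit reported 26.3% of the STAT and SOCS genes were called, below the background of 34.8%. Ptpn1, a phosphatase of JAK2 and TYK2, rose by 0.78 ± 0.12. Stat2 differed by -0.82 ± 0.16, a call lost under array-median scaling, without VSGC12 replicate 2 (-0.69, adjusted p = 0.053) and without EtoH replicate 1 (-0.77, adjusted p = 0.051).

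The promoters of the antiviral genes are shown because many of them carry the interferon-stimulated response element, the sequence bound by IRF factors and by the complex that interferon activates. Promoters are from RefSeq on GRCm38.p6 and run from 250 bases before to 50 bases after a gene's start; 9905 of the genes tested had one. GAAA followed after any 2 bases by GAAA, searched on both strands, was found in 11 of the 25 antiviral genes with a promoter, against 3.44% of all 32851 promoters in the table and 3.95% of the tested genes. Among genes that fell at least 2-fold the share was 7.81% of 384, and among those that rose at least 2-fold 4.90% of 469. The 250 bases before the start of Rsad2 (chr12:26456453-26456702, minus strand) and Ifit3b (chr19:34607707-34607956, plus strand) follow, 5′ to 3′, with the match in capitals.
Rsad2: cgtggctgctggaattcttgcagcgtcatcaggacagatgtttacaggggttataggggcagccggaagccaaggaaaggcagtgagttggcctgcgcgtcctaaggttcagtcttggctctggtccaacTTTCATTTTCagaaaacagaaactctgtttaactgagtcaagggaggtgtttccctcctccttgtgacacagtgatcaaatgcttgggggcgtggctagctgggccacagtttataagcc
Ifit3b: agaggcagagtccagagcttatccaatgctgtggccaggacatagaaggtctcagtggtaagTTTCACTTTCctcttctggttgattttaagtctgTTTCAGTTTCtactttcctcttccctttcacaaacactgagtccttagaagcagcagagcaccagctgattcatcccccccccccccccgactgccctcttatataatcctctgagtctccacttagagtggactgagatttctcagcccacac
Rsad2 holds 1 match, which begins at -120 counted from the start, and Ifit3b holds 2, the first of them at -188. A match of letters does not show that a factor is bound there.

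Cytokines fell in most cases. Of 24 measured pro-inflammatory cytokines 14 fell and 2 rose (66.7% called, median -0.61), and under array-median scaling 9 fell. Il1b, which encodes interleukin 1 beta, read 4.34 and 4.16 on the VSGC12 arrays, against 6.67 and 6.54 on the EtoH arrays, 5.14-fold lower with VSGC12 (log2 -2.36 ± 0.11, adjusted p = 3.7e-05). Il1a, its sister cytokine, read 0.52 and 0.51 with VSGC12, against 2.02 and 2.19 with EtoH (-1.59 ± 0.09). Both fell on both slides. Il6 changed less, at 5.47 and 5.51 with VSGC12 against 6.14 and 6.24 with EtoH (-0.70 ± 0.10, adjusted p = 0.0032), and this call was lost under array-median scaling. Tnf read 6.98 and 7.12 with VSGC12, against 7.30 and 7.38 with EtoH. Its arrays did not overlap, but the difference of -0.29 ± 0.11 missed the threshold (adjusted p = 0.075). Tnf was called when the slide was added to the fit and with a trended and robust variance. The probe of Tnf lay in a patch on EtoH replicate 1. Inhba, a chain of activin A, was below background with VSGC12 and at least 1.44-fold lower, a call lost without VSGC12 replicate 1 (-2.30, adjusted p = 0.055) and without EtoH replicate 2 (-2.53, adjusted p = 0.052). Against the list went Edn1, which encodes the vasoconstrictor endothelin 1, with 4.33 and 4.13 in VSGC12 against 2.15 and 2.28 in EtoH (2.02 ± 0.10). Tnfsf13b, the B cell survival factor BAFF, was called higher too, though it was well above background on 1 VSGC12 array and no EtoH array.

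In the interleukin 1 family and the inflammasome, 20 genes, 10 fell and 2 rose, and under array-median scaling 5 fell and 3 rose. The risers were Nlrp3, the inflammasome sensor, with -1.0 and -1.23 in VSGC12 against -2.37 and -2.08 in EtoH (1.11 ± 0.16), and Il1rl1, the receptor for interleukin 33, with 2.49 and 2.26 against 0.94 and 0.81 in EtoH (1.5 ± 0.18). So the receptor Il1rl1 was higher in the same samples in which its ligand Il33 was lower. Of 14 anti-inflammatory cytokines and receptors 6 fell and 3 rose, and under array-median scaling 1 fell and 1 rose; 1 rose without VSGC12 replicate 1 or EtoH replicate 2. Il10, a cytokine that restrains macrophages, read 1.85 and 1.70 with VSGC12, against 2.53 and 2.52 with EtoH (-0.75 ± 0.08, adjusted p = 0.001); its call was lost under array-median scaling, and its probe lay in a patch on VSGC12 replicate 2. Nfil3, a transcription factor induced by cytokines, rose by 0.86 ± 0.08.

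Of 16 measured chemokine ligands 6 fell and 1 rose, 43.8% called against the background of 34.8%, with a median of -0.33, and under array-median scaling 3 fell. Ccl12, a ligand of CCR2, read -1.49 and -2.04 on the VSGC12 arrays, against 1.77 and 1.83 on the EtoH arrays, 11.9-fold lower with VSGC12 (log2 -3.57 ± 0.19, adjusted p = 5.3e-05). Ccl7, encoded beside it on chromosome 11, read 5.58 and 5.36 with VSGC12, against 7.89 and 7.84 with EtoH (-2.40 ± 0.12). Ccl2, another member of the same cluster and the strongest attractant of monocytes, differed by -0.50 ± 0.11 (adjusted p = 0.014); this call was lost under array-median scaling, without VSGC12 replicate 2 (-0.43, adjusted p = 0.078) and without EtoH replicate 1 (-0.38, adjusted p = 0.076). Ccl5 fell by 1.17 ± 0.09 (log2 -1.17). The one that rose was Pf4, platelet factor 4, with 2.61 and 2.53 in VSGC12 against 1.09 and 0.87 in EtoH (1.59 ± 0.13). Among 11 receptors for chemoattractants 3 rose and 4 fell. Ptafr, the receptor for platelet-activating factor, fell by 2.16 ± 0.10 (log2 -2.16) and C3ar1, the receptor for complement C3a, by 1.71 ± 0.17 (log2 -1.71), while Cx3cr1, the fractalkine receptor, was higher by 0.92 ± 0.19, a call lost without EtoH replicate 1 (0.82, adjusted p = 0.062) and without the spots in patches (1.19, adjusted p = 0.10). Without EtoH replicate 1, 1 of the receptors rose, and 2 fell under array-median scaling.

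Enzymes that make inflammatory mediators changed in both directions. Nos2, the inducible nitric oxide synthase, read 5.78 and 5.64 with VSGC12, against 7.21 and 7.33 with EtoH, 2.93-fold lower (log2 -1.55 ± 0.09, adjusted p = 6.7e-05); its probe lay in a patch on EtoH replicate 1. In the list of nitric oxide and arginine metabolism 5 of 16 genes rose and 5 fell; under array-median scaling 2 rose and 1 fell, and without EtoH replicate 1, 3 fell. Slc7a2, the arginine transporter CAT2, was below background in EtoH and at least 3.38-fold higher in VSGC12, and Srm, spermidine synthase, rose by 0.82 ± 0.09. Of 15 prostaglandin and leukotriene genes 8 fell and 4 rose (80% called). Ptgs2, cyclooxygenase 2, read 7.03 and 7.01 with VSGC12, against 8.31 and 8.40 with EtoH (-1.33 ± 0.13, adjusted p = 0.00062). Hpgds, which makes prostaglandin D2, fell by 1.76 ± 0.12 (log2 -1.76), and Ptger2, a receptor for prostaglandin E2, by 1.44 ± 0.09 (log2 -1.44). Among those that rose, Alox5, 5-lipoxygenase, read -0.01 and -0.03 with VSGC12, against -1.34 and -1.42 with EtoH (1.36 ± 0.11), and its activating protein Alox5ap read 4.47 and 4.48, against 3.63 and 3.51 with EtoH (0.91 ± 0.08). Ptges2, a prostaglandin E synthase, rose too (0.55 ± 0.10), a call lost under array-median scaling. In this list 5 genes fell without VSGC12 replicate 1, 4 without VSGC12 replicate 2, 4 without EtoH replicate 1, and 3 under array-median scaling.

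Proteases, their inhibitors and the acute phase genes followed. Of 13 matrix proteases, plasminogen activators and inhibitors 5 fell and 4 rose; 1 rose without VSGC12 replicate 1 or EtoH replicate 1 and under array-median scaling, and 2 without VSGC12 replicate 2 or EtoH replicate 2. Timp1, an inhibitor of metalloproteinases, read 0.52 and 0.17 with VSGC12, against 2.88 and 2.81 with EtoH (-2.50 ± 0.15), Adamts1 fell by 2.32 ± 0.09 (log2 -2.32), and Mmp13, a collagenase, fell by 2.58 ± 0.10 (log2 -2.58) and was well above background on only 1 VSGC12 array. Of 16 acute phase and complement genes 8 rose and 1 fell (median 0.52). Besides Hp these included F3, tissue factor, higher by 1.58 ± 0.17, and C1ra, a protease of the classical complement pathway, higher by 1.20 ± 0.09. The one that fell was Cfb, factor B of the alternative pathway, at 1.98 and 1.91 with VSGC12 against 3.87 and 3.76 with EtoH (-1.87 ± 0.12). Of 8 serpins 3 rose and 3 fell; Serpinb2, an inhibitor of plasminogen activators, fell by 1.70 ± 0.13 (log2 -1.70).

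The adaptors and transcription factors of inflammatory signalling changed in both directions. In NF-kB subunits and inhibitors 3 of 22 rose and 5 fell, 36.4% called, close to the background; under array-median scaling 1 rose and 0 fell, 2 fell without either second replicate and 3 without either first one. Tnfaip3 (A20), a brake on the pathway, differed by 0.53 ± 0.09 and Nfkb2 by -0.70 ± 0.09, and both calls were lost under array-median scaling. Of 31 Toll-like receptor genes 11 fell and 5 rose, and under array-median scaling 0 fell, 3 rose and the median changed sign. Irak3, a kinase-like inhibitor of the pathway, read 3.53 and 3.38 with VSGC12, against 2.49 and 2.64 with EtoH (0.89 ± 0.10). Tlr2, the receptor for bacterial lipoproteins, rose by 0.70 ± 0.10 and Tlr13, a sensor of bacterial ribosomal RNA, by 0.87 ± 0.13. Of 26 AP-1 factors and early-response genes 17 fell and 3 rose (76.9% called, median -0.70), and under array-median scaling 6 fell. Myc, the growth-promoting transcription factor, read -0.59 and -0.90 with VSGC12, against 1.13 and 1.21 with EtoH (-1.92 ± 0.20, adjusted p = 0.00077). Atf3, a stress-induced repressor, read 5.69 and 5.71, against 7.37 and 7.49 with EtoH (-1.73 ± 0.10). Egr1, an immediate early factor, went the other way (1.23 ± 0.15), as did Batf3 (1.76 ± 0.21) and Ier2 (0.55 ± 0.10, lost under array-median scaling).

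Of 16 dual-specificity phosphatases, which switch off MAP kinases, 6 fell and 1 rose. Dusp2, a nuclear phosphatase of ERK and p38, was the one that rose, with 7.32 and 7.28 in VSGC12 against 6.10 and 5.97 in EtoH (1.27 ± 0.10, adjusted p = 0.00027). Dusp14 fell by 2.13 ± 0.11 (log2 -2.13), Dusp10 by 1.98 ± 0.21 (log2 -1.98) and Dusp5 by 1.82 ± 0.15 (log2 -1.82). Without VSGC12 replicate 2, 2 rose. Thus Dusp1 was not called while its relatives went in both directions. Of 18 mRNA decay factors 1 was called, Tial1 at 0.37 ± 0.09, and that call was lost under array-median scaling, without VSGC12 replicate 1 (0.37, adjusted p = 0.073), VSGC12 replicate 2 (0.37, adjusted p = 0.076) or EtoH replicate 2 (0.32, adjusted p = 0.10). Of 8 RGS proteins, which shorten G protein signals, 3 fell and 1 rose: beside Rgs2, Rgs1 fell by 2.0 ± 0.14 (log2 -2.0), and Rgs16 rose by 0.79 ± 0.11.

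The sequences AP-1 and NF-kB bind were counted in the same promoters. TGANTCA, the AP-1 letters, stood in 11.7% of the promoters of genes that fell at least 2-fold, against 5.97% of those that rose at least 2-fold, 6.51% of tested genes and 7.81% of all promoters; 0 of 18 AP-1 factors and early-response genes with a promoter held it. The NF-kB letters, GGG and TTTCC with any 2 bases between, stood in 3.65% of genes that fell and 1.92% of those that rose by that much, against 2.12% of tested genes and 1.63% of all promoters, and in 3 of 17 cytokine genes (Csf1, Il6 and Ltb). The receptor's palindrome, GNACA and TGTNC with any 3 bases between, was rare, in 0.475% of all promoters and 0.343% of tested genes, in 0.853% of genes that rose and 0.521% of genes that fell at least 2-fold; of 26 receptor targets with a promoter Mt1 and Sgk1 held it, and neither was called (0.31 and 0.27). Each motif was read on both strands. No match says only that these letters are not within these 300 bases, and most known receptor sites lie farther from the start.

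On the cell surface, genes went in both directions. Of 19 efferocytosis and scavenger genes 9 fell and 3 rose (median -0.86), and under array-median scaling 6 fell. Mrc1, the mannose receptor, was below background with VSGC12 and at least 1.55-fold lower, and its probe lay in a patch on both EtoH arrays. Clec7a (dectin 1), a receptor for fungal glucans, fell by 1.76 ± 0.29 (log2 -1.76), and Thbs1, thrombospondin 1, was at least 2.04-fold lower. Mertk and Scarb1, a lipoprotein receptor higher by 1.05 ± 0.08, went against the list; the call of Scarb1 was lost without the spots in patches. Of 11 genes of alternative activation 3 rose and 3 fell, with the lectins Mgl2 at 0.93 ± 0.16 and Clec10a at 0.87 ± 0.13 among the risers; under array-median scaling 1 fell. Of 21 Fc receptors and C-type lectins 5 rose and 6 fell, and under array-median scaling 3 rose and 3 fell; without VSGC12 replicate 1, 3 rose. Trem1, a receptor that amplifies inflammatory signals, read 3.22 and 3.76 with VSGC12, against 1.19 and 1.24 with EtoH (2.28 ± 0.26, adjusted p = 0.001); its neighbour Trem3 rose by 1.52 ± 0.14, and Pirb, an inhibitory receptor for MHC class I, by 1.08 ± 0.12.

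Of 16 co-stimulatory and checkpoint molecules 9 fell and 2 rose; the number that fell was 6 without VSGC12 replicate 2, 5 without EtoH replicate 1 and 2 under array-median scaling. Cd83, a marker of mature antigen-presenting cells, read 4.01 and 3.82 with VSGC12, against 5.25 and 5.20 with EtoH (-1.31 ± 0.10), and Slamf7, a receptor of activated macrophages, fell by 1.58 ± 0.11 (log2 -1.58). Icosl, a ligand for T cells, rose by 0.84 ± 0.09 and Cd47, the signal that restrains phagocytosis, by 0.63 ± 0.09. Of 20 MHC class I genes 3 rose and 5 fell, with differences from -0.67 to 0.82; under array-median scaling 1 rose and 0 fell, and with any of the 4 arrays left out between 0 and 2 rose and 1 or 2 fell. Of 24 integrins and adhesion genes 7 rose and 6 fell; 3 fell without VSGC12 replicate 2 and 1 under array-median scaling. Itgb7 read 2.19 and 1.89 with VSGC12, against 4.43 and 4.22 with EtoH (-2.29 ± 0.15), and Itga6, the laminin receptor chain, rose by 1.25 ± 0.15. Among 17 purinergic and other G protein-coupled receptors 8 rose and 6 fell (82.4% called); 5 rose without VSGC12 replicate 2, and 3 fell under array-median scaling. Adora2b, a receptor through which adenosine raises cyclic AMP, rose by 1.14 ± 0.09, Gpr65, a proton sensor, by 1.21 ± 0.12, and Gprc5a fell by 1.88 ± 0.08 (log2 -1.88). Adora2a had 3.17 and 3.99 in VSGC12 against 1.38 and 1.14 in EtoH (2.32 ± 0.55); that call was lost without VSGC12 replicate 2 (1.91, adjusted p = 0.097), without EtoH replicate 1 (2.44, adjusted p = 0.064) and without EtoH replicate 2 (2.20, adjusted p = 0.085).

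The lineage genes of the macrophage were split. Of 26 identity genes 8 rose and 10 fell (69.2% called), the median of -0.10 changed sign under array-median scaling, where 4 rose and 2 fell, and without VSGC12 replicate 2, 5 rose and 5 fell, while without EtoH replicate 1, 5 fell. Csf1r, the receptor for the growth factor M-CSF, read 7.12 and 7.18 with VSGC12, against 6.04 and 6.00 with EtoH (1.13 ± 0.13, adjusted p = 0.0012). Itgam (CD11b) read 5.01 and 5.17 with VSGC12, against 3.88 and 3.66 with EtoH (1.32 ± 0.12), although of its 3 probes 1 was called. Runx1, a factor of blood cell development, fell by 1.10 ± 0.10 (log2 -1.10), although the other probe of Runx1 differed by 0.01. Of 19 osteoclast genes 11 fell and 3 rose; the number that fell was 5 without VSGC12 replicate 2, 7 without EtoH replicate 1 or 2, and 3 under array-median scaling. Atp6v0d2, a subunit of the proton pump, fell by 2.02 ± 0.27 (log2 -2.02), whereas Car2, carbonic anhydrase 2, rose by 1.56 ± 0.11 and Jdp2 by 1.46 ± 0.09. Of 37 lysosomal genes 16 fell and 3 rose, and under array-median scaling 2 fell and 1 rose; with any of the 4 arrays left out between 0 and 2 rose. Lipa, lysosomal acid lipase, read 2.98 and 2.88 with VSGC12, against 4.17 and 4.05 with EtoH (-1.18 ± 0.11). Of 22 autophagy genes 10 fell and 2 rose, 0 or 1 rose with any of the 4 arrays left out, 6 fell without EtoH replicate 2, and 1 fell and 0 rose under array-median scaling; Sqstm1 (p62), the cargo receptor, fell by 1.29 ± 0.18 (log2 -1.29).

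Clock genes mostly fell. Of 17 clock genes 10 fell and 1 rose (median -0.70), with 5 falling without VSGC12 replicate 2, 4 without EtoH replicate 2 and 7 under array-median scaling. Tef, a PAR bZIP factor whose level the clock sets, read 0.84 and 0.72 with VSGC12, against 2.74 and 2.75 with EtoH (-1.96 ± 0.10, adjusted p = 4.5e-05). Bhlhe40 (-1.89 ± 0.17) and Bhlhe41 (-1.40 ± 0.23), repressors of the clock's E-box, fell as well. Nfil3, the factor that opposes the PAR bZIP proteins, was the one that rose. The E-box CACGTG stood in 5 of 14 clock genes with a promoter (Bhlhe41, Ciart, Cry1, Per1 and Tef), against 7.15% of all promoters and 11.6% of tested genes, in 9.81% of genes that rose and 11.2% of those that fell at least 2-fold. The D-box TTATGTAA stood in 0 of those 14 and in 0.938% of all promoters.

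Stress and iron genes changed in part. Of 25 NRF2 targets and antioxidant genes 4 rose and 6 fell, and under array-median scaling 1 rose and 2 fell; without VSGC12 replicate 1, 2 rose. Hmox1, which breaks down heme, read 6.01 and 5.95 with VSGC12, against 8.02 and 7.93 with EtoH, a difference of -2.0 ± 0.07 (adjusted p = 1.6e-05), and both of its probes fell. Gsr, glutathione reductase, rose by 0.85 ± 0.15. The share called in this list was 40%, against the background of 34.8%. The antioxidant letters TGACNNNGC, which can share bases with an AP-1 match, stood in 9 of 21 of these genes with a promoter and in 12.4% of all promoters. Of 17 iron genes 5 rose and 4 fell, and under array-median scaling 2 fell. Cp, ceruloplasmin, which oxidises iron for export, read 5.60 and 5.48 with VSGC12, against 2.42 and 2.29 with EtoH (3.19 ± 0.11, adjusted p = 1.5e-05), whereas Slc40a1, the iron exporter ferroportin, read -2.70 and -2.16 with VSGC12, against -0.38 and -0.55 with EtoH (-1.97 ± 0.19). So Hp, Cp and Steap1 were higher and Hmox1 and Slc40a1 lower in the same arrays. Of 17 heat shock genes 8 fell and 3 rose; 1 rose without VSGC12 replicate 1, 4 fell without VSGC12 replicate 2 or EtoH replicate 2, and under array-median scaling 2 fell and 1 rose. The heat shock letters, GAA, TTC and GAA with any 2 bases between each, stood in 4 of 12 of them with a promoter and in 0.603% of all promoters. Of 26 genes of the unfolded protein and amino-acid stress response 6 fell and 2 rose, 30.8% called, below the background of 34.8%. Among them were Dnajb9, a chaperone of the endoplasmic reticulum, at -1.08 ± 0.15, and Mthfd2 at 0.70 ± 0.10. Under array-median scaling the median changed sign, 2 fell and 1 rose.

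Lipid genes went in both directions. Of 26 genes of sterol synthesis and uptake 14 rose and 2 fell (median 0.38). Idi1, an isomerase of the mevalonate pathway, read 3.39 and 3.12 with VSGC12, against 2.24 and 2.12 with EtoH (1.08 ± 0.11), and Hsd17b7 (0.94 ± 0.14) and Cyp51 (0.90 ± 0.15), later enzymes of the pathway, rose with it. The 2 that fell, Insig1 and Insig2, retain the sterol sensor in the endoplasmic reticulum, and both calls were lost with any of the 4 arrays left out (-0.65 to -0.98 for Insig1, -0.27 to -0.33 for Insig2). Without EtoH replicate 2, 9 rose, and under array-median scaling 8 rose and 0 fell. The sterol response letters, ATCAC and CCAC with any 1 base between, stood in 0 of 19 of these genes with a promoter and in 0.234% of all promoters. Of 35 genes of fatty acid synthesis and lipid handling 10 rose and 9 fell, and under array-median scaling 7 rose and 3 fell. Lpl, lipoprotein lipase, rose by 1.61 ± 0.12, Fabp4, a fatty acid carrier, by 1.55 ± 0.10 and Scd1, which makes monounsaturated fatty acids, by 1.42 ± 0.11. Abca1, which exports cholesterol, read 0.81 and 0.58 with VSGC12, against 1.75 and 1.96 with EtoH (-1.16 ± 0.11).

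In energy metabolism, genes of the respiratory chain and the mitochondrial ribosome moved by small amounts, and some glycolytic and hypoxia-inducible genes by larger ones. Of 35 genes of the respiratory chain 20 rose and 0 fell, with differences from -0.24 to 0.71 and a median of 0.33. The number that rose was 11 without VSGC12 replicate 1, 8 without EtoH replicate 2 and 3 under array-median scaling. Cox7b, a subunit of complex IV, rose by 0.71 ± 0.10 and Ndufv1, of complex I, by 0.61 ± 0.11. Of 32 mitochondrial ribosomal proteins 17 rose and 0 fell, and 9 rose without VSGC12 replicate 1, 11 without VSGC12 replicate 2, 10 without EtoH replicate 1, 11 without EtoH replicate 2 and 8 under array-median scaling; Mrpl42 rose by 0.88 ± 0.13. Of 29 glycolytic and hypoxia-inducible genes 12 fell and 2 rose, and under array-median scaling 5 fell, 1 rose and the median changed sign. P4ha2, a prolyl hydroxylase of collagen, read -1.19 and -1.72 with VSGC12, against 0.85 and 1.23 with EtoH (-2.49 ± 0.25); Ndrg1 fell by 1.40 ± 0.11 (log2 -1.40), and Pfkfb3, which speeds glycolysis, rose by 0.77 ± 0.09. Of 25 solute carriers 7 rose and 7 fell (3 and 1 under array-median scaling), led by Slc7a2 above and by Slc15a3, a lysosomal peptide transporter, below (-1.46 ± 0.10). Of 32 proteasome subunits 6 rose and 3 fell (28.1% called, against the background of 34.8%); under array-median scaling 1 rose and 0 fell, and with any of the 4 arrays left out between 1 and 3 rose and 1 fell.

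The list with the highest share of called genes was that of cell division. Of 54 measured genes of mitosis and cytokinesis 53 rose and 0 fell, 98.15% called against a background of 16.2% for rising genes, with a median of 1.88. Bub3, a checkpoint protein named here after its value was seen, was the one not called, at 0.11. Under array-median scaling 50 rose, and with any of the 4 arrays left out 51 or 52. Plk1, the kinase that drives entry into mitosis, read 3.49 and 3.34 on the VSGC12 arrays, against -0.38 and -0.90 on the EtoH arrays, 16.6-fold higher (log2 4.06 ± 0.18, adjusted p = 2.9e-05). Birc5 (survivin), a subunit of the complex that corrects spindle attachment, read 4.97 and 4.81 with VSGC12, against 1.6 and 1.23 with EtoH (3.48 ± 0.14), and its 3 probes ran from 3.26 to 3.67. Mki67, the gene of the proliferation marker Ki-67, read 2.79 and 2.82, against 1.03 and 1.27 with EtoH (1.65 ± 0.10). The VSGC12 and EtoH arrays of each of these were apart by more than 1.5 units. Pbk differed by 5.09 ± 0.32 and Aspm by 3.94 ± 0.25, but both were well above background on only 1 EtoH array.

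Genes of S phase rose alongside. Of 44 DNA replication genes 34 rose and 1 fell (median 1.03), and under array-median scaling 32 rose and 0 fell. Mcm6, a subunit of the replicative helicase, read 5.73 and 5.61 with VSGC12, against 3.16 and 3.16 with EtoH (2.51 ± 0.11), Mcm10 read 2.75 and 2.62, against -0.13 and -0.48 with EtoH (2.99 ± 0.13), and Pole, the leading-strand polymerase, rose by 2.74 ± 0.11. Cdt1, which licenses origins before S phase, was the one that fell, at 5.93 and 5.72 with VSGC12 against 6.43 and 6.51 with EtoH (-0.65 ± 0.11), a call lost under array-median scaling. Of 33 genes of nucleotide synthesis 25 rose and 0 fell, and under array-median scaling 20 rose and 0 fell. Tk1, thymidine kinase, read 4.05 and 4.0 with VSGC12, against 0.42 and 0.28 with EtoH, 12.7-fold higher (log2 3.67 ± 0.09, adjusted p = 9.1e-06), Rrm2, the small subunit of ribonucleotide reductase, rose by 3.32 ± 0.16, and Rrm1, the large one, by 1.64 ± 0.11. Of 35 Fanconi, recombination and repair genes 29 rose and 3 fell (91.4% called), and under array-median scaling 26 rose. Exo1, an exonuclease, read 1.47 and 1.18 with VSGC12, against -2.54 and -2.57 with EtoH (3.88 ± 0.12). The 3 that fell were Fancc (-0.69), Ung (-0.61) and Mus81 (-0.35), and none of them fell under array-median scaling; Fancc was lost without VSGC12 replicate 2 (-0.62) or EtoH replicate 1 (-0.63), and Mus81 with any of the 4 arrays left out (-0.30 to -0.39).

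The regulators of the cycle were less uniform. Of 25 cyclins, cyclin-dependent kinases and their activators 17 rose and 1 fell (12 and 1 under array-median scaling). Of 19 E2F, RB and MuvB regulators 9 rose and 1 fell (8 and 0 under array-median scaling). Ccnb2, cyclin B2, read 2.61 and 2.49 with VSGC12, against -0.03 and -0.13 with EtoH (2.63 ± 0.10), and Cdk1, its kinase, read 3.99 and 3.94, against 1.48 and 1.35 with EtoH (2.55 ± 0.14). Foxm1 rose by 1.30 ± 0.13 and Mybl2 by 2.62 ± 0.15; both are activators of late cell cycle genes. The cyclin that fell was Ccng2, which is known to accompany arrest, at -2.47 and -2.42 with VSGC12 against -0.82 and -0.74 with EtoH (-1.67 ± 0.13). Of 22 CDK inhibitors and growth-arrest genes 11 fell and 4 rose (median -0.38), and under array-median scaling 5 fell and 0 rose; with any of the 4 arrays left out 1 or 2 rose. Gadd45g fell by 1.76 ± 0.17 (log2 -1.76), Plk2 by 1.46 ± 0.17 (log2 -1.46) and Gadd45b by 1.22 ± 0.11 (log2 -1.22). Cdkn1a, the inhibitor p21, read 3.53 and 3.34 with VSGC12, against 4.02 and 3.96 with EtoH (-0.56 ± 0.10, adjusted p = 0.0055), a call lost under array-median scaling. Of 38 genes of the nucleolus and ribosome biogenesis 29 rose and 0 fell (median 0.59), although Myc itself fell; 17 rose without VSGC12 replicate 1, 18 without EtoH replicate 2 and 16 under array-median scaling. Dkc1, the pseudouridine synthase dyskerin, rose by 1.31 ± 0.07 and Nhp2, its partner, by 1.17 ± 0.12.

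**Figure D3:**
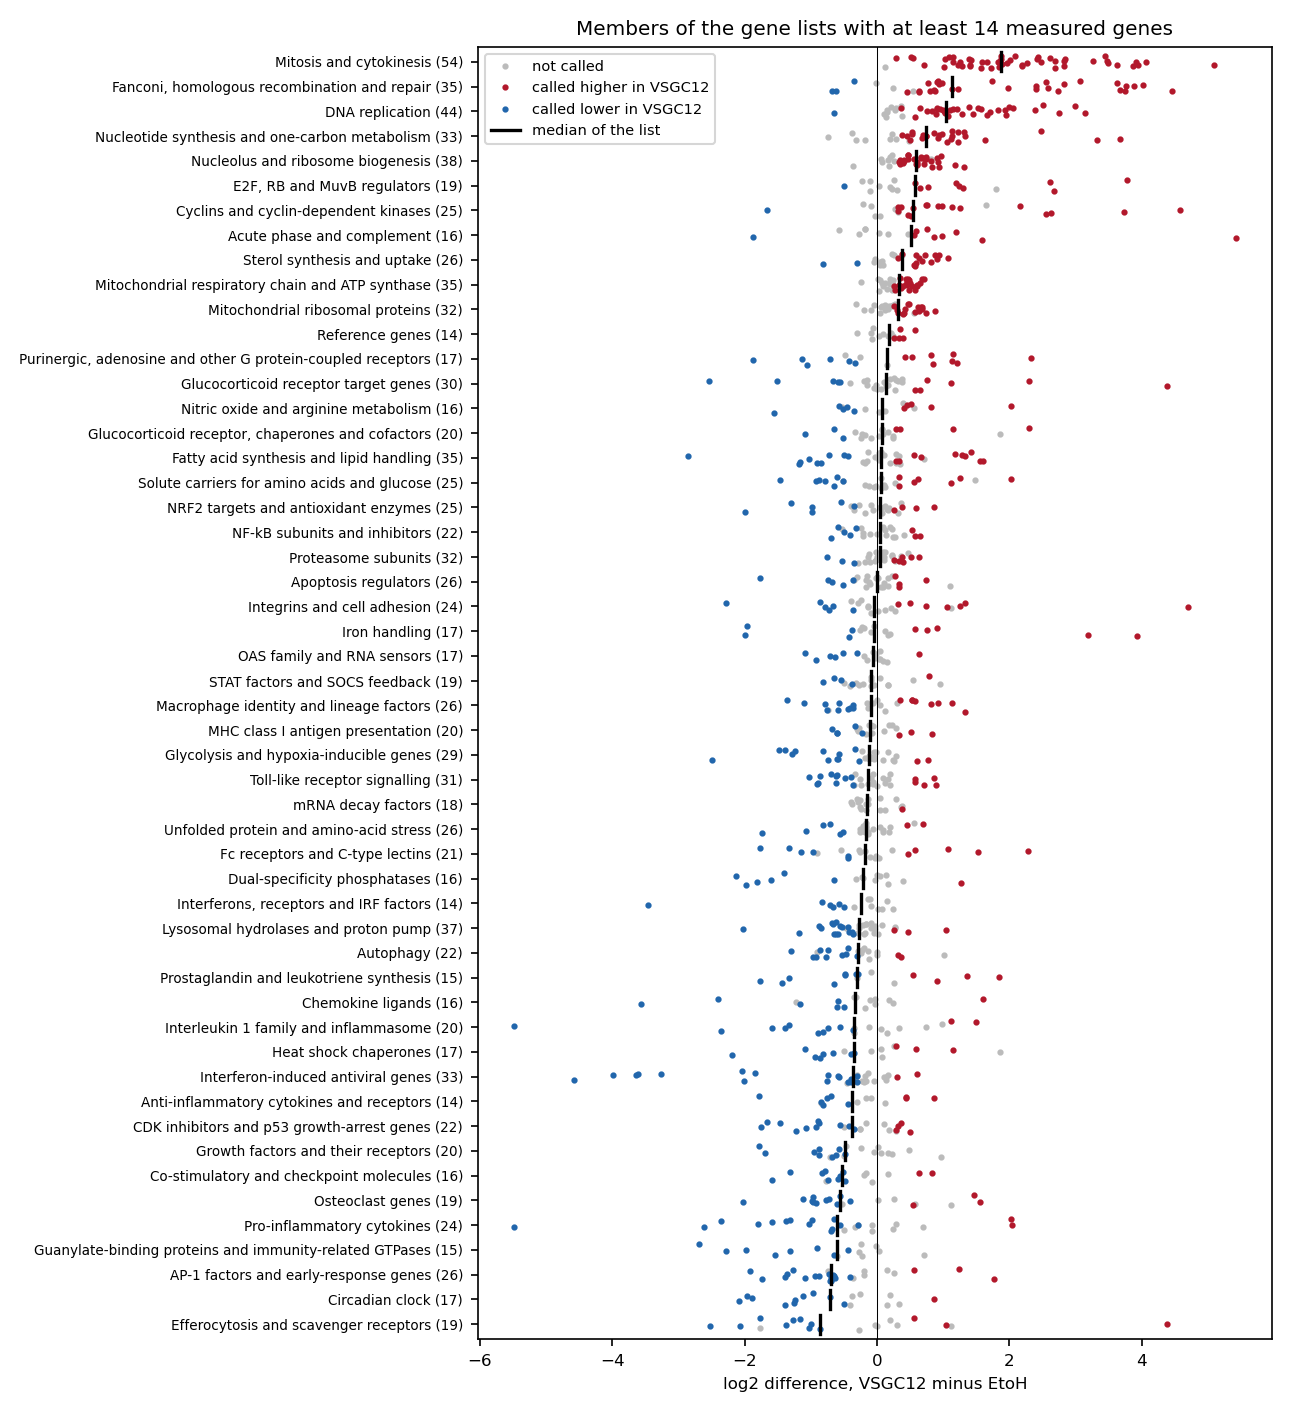
Log2 differences, VSGC12 minus EtoH (horizontal axis), of the members of each gene list with at least 14 measured genes; the number measured stands in brackets, called genes are red (higher in VSGC12) or blue (lower), genes not called grey, and the black bar is the list's median. Mitosis and cytokinesis stands at the top with a median of 1.88, efferocytosis and scavenger receptors at the bottom with -0.86.

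Promoters of the division genes are shown for 3 of the genes above, chosen because they hold the letters that E2F or the NF-Y factor bind. TTTNGCGC, the E2F letters, stood in 13 of 35 DNA replication genes with a promoter, in 6.61% of genes that rose at least 2-fold and in 1.30% of those that fell at least 2-fold, against 2.79% of tested genes and 1.38% of all promoters. TTTGAA, the cell cycle genes homology region, stood in 33 of 45 genes of mitosis and cytokinesis with a promoter, in 28.6% of genes that rose and 14.6% of those that fell by that much, against 15% of tested genes and 17.9% of all promoters. CCAAT, the NF-Y letters, stood in 34 of the same 45, in 56.9% and 41.7%, against 43.0% of tested genes and 37.4% of all promoters. CCAAT also stands before Il33, the named gene with the largest fall. The 250 bases before the start follow, 5′ to 3′, with E2F letters in capitals for Cdk1 (chr10:69352913-69353162, minus strand) and Mcm6 (chr1:128359706-128359955, minus strand) and the CCAAT letters in capitals for Plk1 (chr7:122159185-122159434, plus strand).
Cdk1: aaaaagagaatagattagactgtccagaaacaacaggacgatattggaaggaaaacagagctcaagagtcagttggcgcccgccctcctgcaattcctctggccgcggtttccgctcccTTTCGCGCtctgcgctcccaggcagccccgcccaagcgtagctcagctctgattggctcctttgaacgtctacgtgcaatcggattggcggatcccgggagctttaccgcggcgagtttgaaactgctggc
Mcm6: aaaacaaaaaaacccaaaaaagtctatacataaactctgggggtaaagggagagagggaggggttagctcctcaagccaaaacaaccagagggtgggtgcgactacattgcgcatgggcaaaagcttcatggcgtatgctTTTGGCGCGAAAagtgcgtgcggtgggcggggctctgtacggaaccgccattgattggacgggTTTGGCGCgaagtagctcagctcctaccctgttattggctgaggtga
Plk1: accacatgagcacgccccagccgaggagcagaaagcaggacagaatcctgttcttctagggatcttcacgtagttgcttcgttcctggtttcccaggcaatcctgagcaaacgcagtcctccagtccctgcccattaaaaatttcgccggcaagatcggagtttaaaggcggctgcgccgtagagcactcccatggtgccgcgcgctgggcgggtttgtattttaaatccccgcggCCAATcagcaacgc
Mcm6 holds 3 matches and Cdk1 holds 1. In Plk1 the CCAAT letters begin at -14, and its TTTGAA letters at 30, outside the stretch printed. All were read on both strands, and short letters such as CCAAT occur in many promoters of every kind.

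Survival genes were called about as often as all genes, and none of the growth factor genes measured rose. Of 26 apoptosis regulators 4 rose and 5 fell, 34.6% called, as in the background, and under array-median scaling 1 rose and 1 fell; with any of the 4 arrays left out 1 or 2 rose. Bcl2l11 (BIM), a trigger of apoptosis, read 0.66 and 0.38 with VSGC12, against 2.18 and 2.39 with EtoH (-1.77 ± 0.14, adjusted p = 0.00023). Of 20 growth factors and receptors 9 fell and 0 rose, 45% called against the background of 34.8%, and under array-median scaling 2 fell. Vegfc, a growth factor of lymphatic vessels, read 2.82 and 2.66 with VSGC12, against 4.51 and 4.55 with EtoH (-1.79 ± 0.12), and Pgf, placental growth factor, fell by 1.69 ± 0.20 (log2 -1.69).

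Reference genes changed little in size. Of 14 genes often used as references 5 rose and 0 fell, the largest rise being 0.57, with a median of 0.19; 0 were called under array-median scaling, 0 without VSGC12 replicate 1 or 2, 1 without EtoH replicate 1 and 3 without EtoH replicate 2. In the fit reported 35.7% of the reference genes were called, close to the background of 34.8%. Gapdh read 9.63 and 9.53 with VSGC12, against 9.58 and 9.4 with EtoH, and none of its 7 probes was called. Actb read 9.73 and 9.68 with VSGC12, against 9.85 and 9.52 with EtoH (0.02 ± 0.13, adjusted p = 0.91). Of the few markers of other cells that passed the filter, the fibroblast genes Dcn and Lum were not called, Il7r fell by 1.67 ± 0.13 (log2 -1.67), and Cd3e was not called at -0.27. Cd4, the third T cell marker measured, read 5.34 and 5.73 with VSGC12, against 4.34 and 4.39 with EtoH, and was not called (1.17 ± 0.42, adjusted p = 0.069); under array-median scaling 1 T cell marker rose. Of 3 neutrophil and mast cell markers Tpsb2 rose (0.42 ± 0.09) and Camp fell (log2 -0.64 ± 0.19), and both calls were lost under array-median scaling and without VSGC12 replicate 2 (0.37 for Tpsb2 and -0.70 for Camp); that of Tpsb2 was lost without EtoH replicate 2 (0.38), that of Camp without VSGC12 replicate 1 (-0.58) or EtoH replicate 1 (-0.38). Elane, neutrophil elastase, read 5.95 and 6.17 with VSGC12, against 4.67 and 5.01 with EtoH, and was not called (1.22 ± 0.45, adjusted p = 0.079); under array-median scaling 1 of these 3 rose. Kdr, an endothelial marker, differed by -0.47 and was not called. Their part in the other changes was not tested.

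Each slide holds 1 VSGC12 and 1 EtoH array, so the difference can be read within each slide, with no test. The sign was the same on both slides in 6283 of the 6289 called genes. Among called genes 0 had overlapping groups, which by itself fixes the same sign wherever all 4 arrays have a value. This count is therefore no separate support, and the remaining called genes lack a value on an array and are not of opposite sign. Mitosis and cytokinesis had a median of 1.91 on slide 1 and 1.87 on slide 2, and DNA replication 1.08 and 0.96. The interferon-induced antiviral genes had medians of -0.31 and -0.34, the pro-inflammatory cytokines -0.52 and -0.74, and the AP-1 and early-response genes -0.65 and -0.74. Hp differed by 5.54 and 5.30 and Rsad2 by -3.92 and -4.05, while Il33 differed by -4.97 and -6.00. The efferocytosis list was the one of these with the widest gap between slides, at -0.52 and -1.04.

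**Figure D4:**
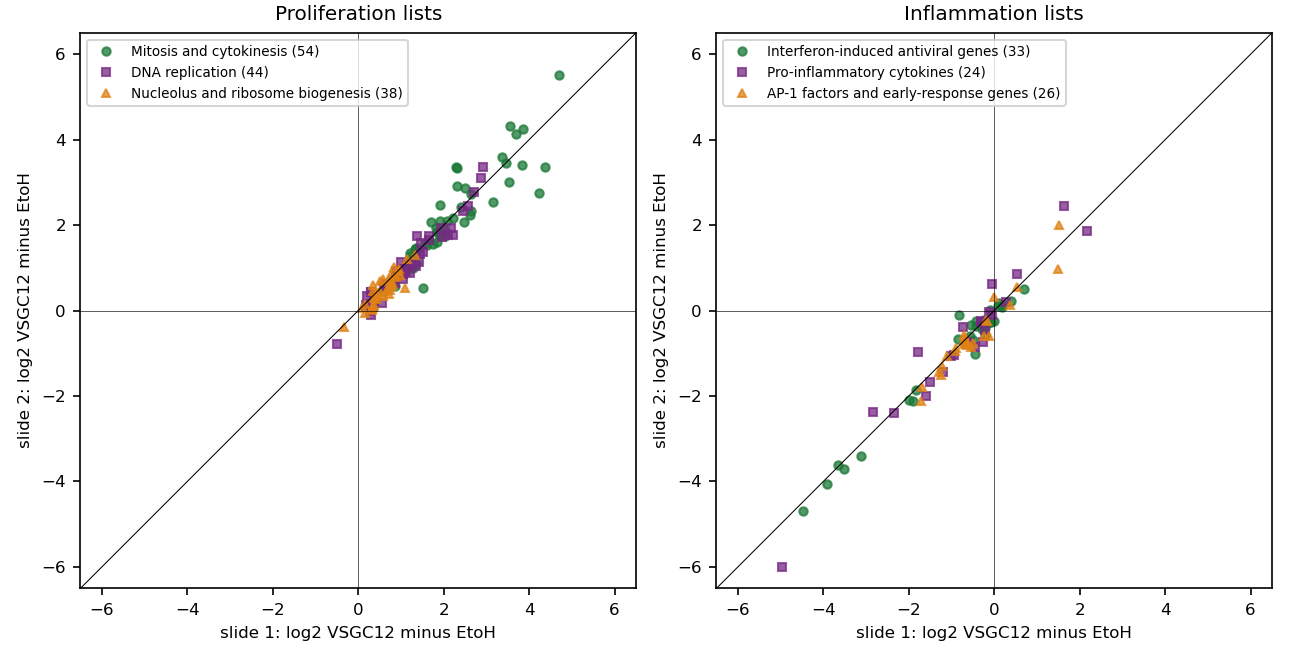
Log2 difference, VSGC12 minus EtoH, on slide 1 (horizontal) and slide 2 (vertical) for members of 3 proliferation lists (left) and 3 inflammation lists (right); the diagonal marks equal values. Points of mitosis and cytokinesis lie along the diagonal above 0 on both slides (medians 1.91 and 1.87), and the antiviral genes extend along it below 0.

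Set against the other glucocorticoids, VSGC12 differed in few genes. The mean of VSG22, FF and Dex was subtracted from VSGC12 in the same fit, in which the EtoH arrays served only for the spread. Of 18028 genes 1 was called (0.00555%), 1147 had an unadjusted p below 0.05, and the median 95% interval of a gene's difference reached 0.26 to either side. The standard deviation of the differences over genes was 0.25, against 0.72 for VSGC12 minus EtoH. The gene called was Pign, which adds ethanolamine phosphate to glycolipid anchors. It read -1.37 and -1.47 on the VSGC12 arrays, against -0.05 and 0.19 with VSG22, 0.62 and 0.81 with FF and -0.11 and -0.14 with Dex (-1.64 ± 0.10, adjusted p = 0.023). It was also lower than with EtoH, at -0.41 and -0.67 (-0.88 ± 0.13), yet its other probe differed from EtoH by -0.23 only. Its call against the other glucocorticoids was lost with the mean of a gene's probes, with no filter on dim probes, with only the groups compared in the fit, with the replicate block, without both Dex arrays, and with any single array other than Dex replicate 2 left out. Without Dex replicate 2, 30 genes were called, Pign among them, and without VSGC12 replicate 1, 3 other genes.

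Against single glucocorticoids, 0 of 18044 genes were called for VSGC12 minus VSG22 (1243 at an unadjusted p below 0.05, limma, the only tool run) and 1 of 18031 for VSGC12 minus FF, again Pign (0.00555%). For VSGC12 minus Dex 71 of 18043 were called (0.394%), 12 higher and 59 lower in VSGC12. But 39 of the 71 lay in a patch of raised spots on a Dex array, against 1666 of the 18046 genes tested. Some called genes outside these patches, such as Nps (-3.84) and Scgb2b18 (-2.36), were below background in VSGC12 and EtoH. Of the 33 interferon-induced antiviral genes 4 were called against Dex, and of the 16 chemokine ligands 2. The antiviral genes called included Ifit3, whose probe lay in a patch on Dex replicate 2. Genes called lower with VSGC12 than with Dex outside such patches included Mx1 (-1.56), Ccl12 (-1.66), Ccl7 (-1.05), Ifit2 (-1.01), Gbp3, a guanylate-binding protein (-1.0), Rsad2 (-0.90) and Slamf7, a surface receptor (-0.87), with adjusted p from 0.013 to 0.034. Cmpk2 was not called against Dex (-0.47, adjusted p = 0.23). Rsad2 read 2.34 and 2.25 with VSGC12, against 3.30 and 3.08 with Dex, and Ccl7 read 5.58 and 5.36, against 6.56 and 6.49. Hp was higher with VSGC12 than with Dex, at 2.81 and 2.62 against 1.38 and 1.41 (1.32, adjusted p = 0.013). In Hp and in the 7 genes called lower above, both Dex arrays lay between the VSGC12 and the EtoH arrays. None of these 8 was called against VSG22 or FF. Hp read 2.77 and 2.56 with VSG22 and 2.33 and 2.31 with FF. Mx1 read -3.23 and -3.46 with VSG22 and -3.81 and -3.86 with FF, differences for VSGC12 of -0.71 and -0.22. Ccl12 read -1.33 and -1.05 with VSG22 and -1.18 and -1.25 with FF, differences of -0.58 and -0.56. In Il1b the difference from Dex was -0.45 and not called (adjusted p = 0.18). Fkbp5 (0.66, adjusted p = 0.14) and Ccna2 (0.46, adjusted p = 0.33) were not called against Dex either. Yet in Ccna2 too the Dex arrays, at 0.44 and 0.44, lay between the VSGC12 and the EtoH arrays. Structures are not given for the code-named compounds, and each glucocorticoid was given at the same dose and time.

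**Figure D5:**
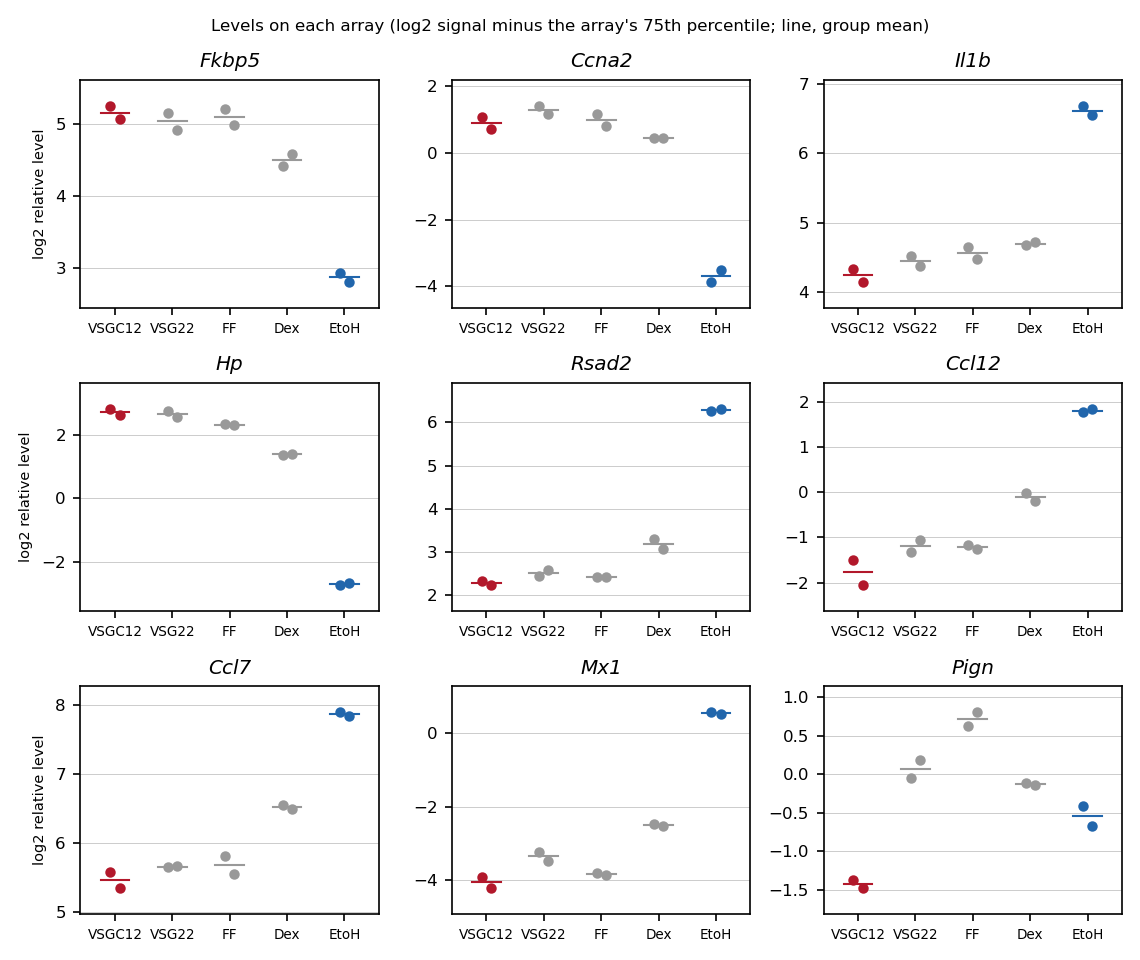
Levels of 9 genes on each of the 10 arrays (points; log2 signal minus the array's 75th percentile) with the group mean (line): VSGC12 in red, VSG22, FF and Dex in grey, EtoH in blue. Vertical scales differ between panels. In Ccna2, Hp, Rsad2, Ccl12, Ccl7 and Mx1 the Dex arrays lie between VSGC12 and EtoH, and in Pign VSGC12 lies below every other array.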

How the data were processed

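RNA (150 ng) from RAW264.7 cells was labelled with Cy3 and hybridised to 10 Agilent mouse arrays, 2 for each of 5 groups. The authors deposited the scanner output of each array. Per the file headers, processed spot intensities were made with Agilent Feature Extraction 10.7.3.1, which subtracted background and removed spatial trends within the array, and probe positions are on mm9; per the file headers, the deposited flags of other kinds mark spots well above background, saturated or uneven. The submitters' processing notes list limma, with no version or role.

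Here, log2 processed intensity minus each array's 75th percentile over non-control spots was averaged over spots of one probe. A probe passed where it was well above background on both arrays of at least 1 group, and the brightest passing probe stood for a gene. Names came from RefSeq by accession (26407 probes), symbol (3864) or synonym (735), and 24675 probes kept the file's name. All 10 arrays entered 1 fit by group in limma 3.58.1 (R 4.3.3) with 5 residual and 1.85 prior degrees of freedom; tests were two-sided and adjusted by Benjamini-Hochberg over all genes, with a threshold of 0.05. The number of arrays limits the precision. A spot lay in a patch on an array where at least 3 of its 24 neighbours were well above background on that array and on no array of another group. Text tables and figures were made with Python 3.11.15, pandas 2.3.3, numpy 2.4.6 and matplotlib 3.10.9, and the fit was tested on simulated data.

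The genes, the 65 gene lists and the rule for naming were chosen with earlier results of these data known. Named were the 15 highest and 15 lowest changes among called genes well above background on all 4 arrays whose groups did not overlap. Also named were the 6 highest bounds each way and up to 4 called members of each list by size of change, together with members against its direction. A fixed set and genes called against the other glucocorticoids were added. Markers of other cells and genes holding a motif were named besides. Promoters were looked up for the first 2 named genes by size of change for each motif, and 5 of them are printed. Hsd11b1, Il12b, Cd163 and Arg1 did not pass the filter, and a few other genes are not reported here. Alternatives changed the scaling, background correction, filter, probe choice, variance model, arrays in the fit and the replicate block. Replicate number follows the slide; deviations of same-numbered arrays from their group means correlated at r = -0.02 between VSGC12 and EtoH and from -0.04 to 0.32 over the 10 pairs of groups (0.32 between VSGC12 and Dex), not above 0.1 in every pair, so no block was used.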

Additional observations from a re-analysis of the deposited data

Results flagged for a closer look

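Pign differed between VSGC12 and the mean of VSG22, FF and Dex by -1.6395 on the log2 scale (limma adjusted p = 0.023), a tested difference between glucocorticoids. Both VSGC12 arrays (-1.37 and -1.47) lay below all 6 arrays of the other glucocorticoids, which ran from -0.14 to 0.81. The other probe of Pign differed from EtoH by -0.23. Groups of 2 arrays were too small to look for single outlying arrays.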

How the results depend on the processing

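The number of genes called for VSGC12 minus EtoH, 6289 in the fit reported, was 2433 with array-median scaling, of which 2236 were shared, and 2982 with no filter on dim probes. It ran from 3729 to 7165 with 1 array left out; a lone array was then assumed to vary like the other groups. Under the other 10 alternatives it stayed within 1.5 times, between 5434 and 7165. The share of calls that were higher was 71.8% with array-median scaling, against 46.5%. The array median is a signal not well above background. For VSGC12 minus the mean of the other glucocorticoids, where 1 gene was called, the count was 8 with quantile normalization, 2 with a trended and robust variance, 0 with no filter, 0 with the mean of a gene's probes, 0 with only the groups compared and 0 without both Dex arrays (limma; 1002 to 1232 genes at an unadjusted p below 0.05 in these 4), and between 0 and 30 with 1 array left out. The replicate block, taken on numbers that share only a slide, gave 6852 and 0 genes; among named genes it gained Tnf (adjusted p = 0.028) and lost Camp. The cause of these shifts was not tested. Of 344 named genes, 140 changed their call under at least 1 of 22 alternatives and 0 changed sign while called; array-median scaling ended 124 calls and no filter 73. Of 63 lists with a median, 21 changed its sign under at least 1 scaling: besides those named in the report these include integrins and iron genes with array-median scaling and NF-kB, NRF2 and proteasome genes with other scalings. Genes at the background give only bounds.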
